A study of Mus musculus with 11 samples.

Results

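The TOM complex of the mitochondrial outer membrane was followed across pools of late 2-cell mouse embryos that differed in maternal Polycomb genotype and in whether transcription was blocked. Its members were taken by name: Tomm40 and its relative Tomm40l, the receptors Tomm20, Tomm22 and Tomm70a, the small subunits Tomm5, Tomm6 and Tomm7, and the cytosolic protein Tomm34. All 9 genes were found, in 11 probe sets, among 21186 genes with 1 symbol on the array. For Tomm20 and Tomm22, which had 2 probe sets each, the brighter one, by its mean across all 11 arrays, was used. The gene set was drawn up after a large fall of Tomm5 in untreated mutant embryos was known, so values of Tomm5 that rest on untreated arrays are given as a description, with no p.

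Each array held RNA from a pool of 40 embryos, and the embryos of several mice were pooled. Mutant embryos came from eggs without Ring1 and Rnf2 (maternal Ring1-Rnf2-), the ubiquitin ligase subunits of Polycomb repressive complex 1, and control embryos came from eggs without Ring1 that kept Rnf2, so all groups share the loss of maternal Ring1. In each genotype some embryos were kept in α-amanitin (24 µg/ml), which blocks RNA polymerase II, starting 6 h after fertilization and ending with harvest at 35 h, and others were left untreated. This gave 2 treated mutant, 3 treated control, 3 untreated mutant and 3 untreated control arrays. Egg donors were 5 to 10 weeks old and wild-type sperm donors 10 to 16 weeks old, on a mixed 129/Sv and C57BL/6J background. The sources used here do not name the Cre line that deleted Rnf2 or the harvest time of untreated embryos. Because the sperm was wild type, the genotype names the egg and not the embryo's paternal alleles.

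Almost all mitochondrial proteins are made in the cytosol and enter the organelle through the TOM complex. Tom40 forms the channel, Tom20 and Tom22 bind precursors with a cleavable presequence, Tom70 takes hydrophobic precursors from cytosolic chaperones, and the small subunits Tom5, Tom6 and Tom7 help to assemble and stabilise the complex, roles worked out largely in yeast. The egg supplies all mitochondria of the embryo together with a store of messenger RNA, and new transcription from the embryo's genome becomes strong at the 2-cell stage. Tomm34 is a cytosolic co-chaperone of Hsp70 and Hsp90 and is not part of the membrane complex.

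Most of these genes were highest in untreated control embryos, and the sequence before the start site is shown for 4 of the members. In control embryos Tomm20 had the largest difference with α-amanitin, and Tomm22 and Tomm5 fell with it. Tomm34 is set beside them because it was not called lower. Each sequence is the 250 bases before the first start listed by RefSeq on GRCm38.p6, written 5′ to 3′ on the gene's own strand. Capitals mark matches to the core that NRF1 binds, GCGC and TGCGC with 1 base of any kind between them, or to CCGGAAG, the core that ETS factors such as GABP bind, on either strand.
Tomm20 (chr8:126945922-126946171, minus strand): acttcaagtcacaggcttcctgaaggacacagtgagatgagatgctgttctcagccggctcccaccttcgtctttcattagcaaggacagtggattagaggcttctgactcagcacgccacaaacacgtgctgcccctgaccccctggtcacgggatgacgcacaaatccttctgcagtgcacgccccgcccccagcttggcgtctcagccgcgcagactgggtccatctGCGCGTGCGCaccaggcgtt
Tomm22 (chr15:79670618-79670867, plus strand): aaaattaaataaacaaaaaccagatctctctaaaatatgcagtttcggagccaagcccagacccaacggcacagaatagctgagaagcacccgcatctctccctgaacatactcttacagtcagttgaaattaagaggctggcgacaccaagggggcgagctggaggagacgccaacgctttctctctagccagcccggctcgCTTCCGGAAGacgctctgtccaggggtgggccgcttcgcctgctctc
Tomm5 (chr4:45108114-45108363, minus strand): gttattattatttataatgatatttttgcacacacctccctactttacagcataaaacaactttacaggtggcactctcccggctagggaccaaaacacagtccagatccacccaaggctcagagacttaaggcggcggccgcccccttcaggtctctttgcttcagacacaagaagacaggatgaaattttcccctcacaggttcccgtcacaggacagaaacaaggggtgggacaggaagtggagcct
Tomm34 (chr2:164071170-164071419, minus strand): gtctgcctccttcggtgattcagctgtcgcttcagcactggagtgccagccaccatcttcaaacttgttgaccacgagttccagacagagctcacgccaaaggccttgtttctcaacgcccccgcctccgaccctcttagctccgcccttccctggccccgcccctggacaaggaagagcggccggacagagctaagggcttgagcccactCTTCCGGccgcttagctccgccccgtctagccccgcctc
The marked stretch of Tomm22 holds the ETS core on both strands, and these 2 matches overlap. Of the 7 members with a promoter entry, Tomm22, Tomm70a and Tomm34 held the ETS core, which is found in 6.91% of 32851 promoters. Tomm20 held the NRF1 core, found in 3.74% of promoters, and also CACGTG, found in 6.02%. Tomm5, Tomm6 and Tomm40 held neither of the first 2 cores in this window. Tomm40 had 5 matches to CCAAT, which 33.8% of promoters hold. Tomm5 had 5 CpG dinucleotides, near the median of 6 over all promoters, and the other members with an entry had 10 to 18. The ETS core thus occurred in genes called lower and also in Tomm34, the only member with an entry that was not called lower. Whether these letters bear on the differences was not tested.

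The deposited values are log2 expression values, and the sources used here do not state how they were normalized. They are read here as relative to the RNA on each array, so a change common to all RNA would not show. Array medians lay between 4.45 and 4.55, and probe sets near them may have little room to fall, though single values ran down to 1.11. The 75th percentile spanned 5.0 to 5.21 across treated mutant arrays and 4.93 to 5.02 across treated control arrays. Untreated mutant arrays had 5.12 to 5.13, and untreated control arrays 5.20 to 5.28. Replicates correlated at 0.966 to 0.984. Rnf2 read 5.18 to 5.24 in treated mutant against 6.89 to 7.31 in treated control arrays, and 5.0 to 5.17 in untreated mutant against 6.59 to 6.84 in untreated control arrays. The summed linear level of 7 measured oocyte markers, of a list of 8, spanned 3754 to 4395 (treated mutant), 3550 to 4009 (treated control), 2976 to 3624 (untreated mutant) and 1792 to 2040 (untreated control). That of 7 measured markers of the activated 2-cell embryo, of a list of 12, was 225.5 to 265.5, 220.3 to 267.2, 1375 to 1928 and 966.5 to 1363 in the same groups. The part of these shifts in the results below was not tested. Sums over 10 cumulus and granulosa markers stayed between 202.9 and 296.5, highest in untreated control arrays, where 1 of the 10 had a mean above the array median. Since the arrays read pools, fewer cells holding a transcript and less of it in each cell cannot be told apart. Fits with limma over all 11 arrays gave the tests, with Benjamini-Hochberg adjustment over 34760 probe sets and an adjusted p below 0.05 called a change. Values written with ± are log2 differences with the standard error of that fit.

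**Figure D1:**
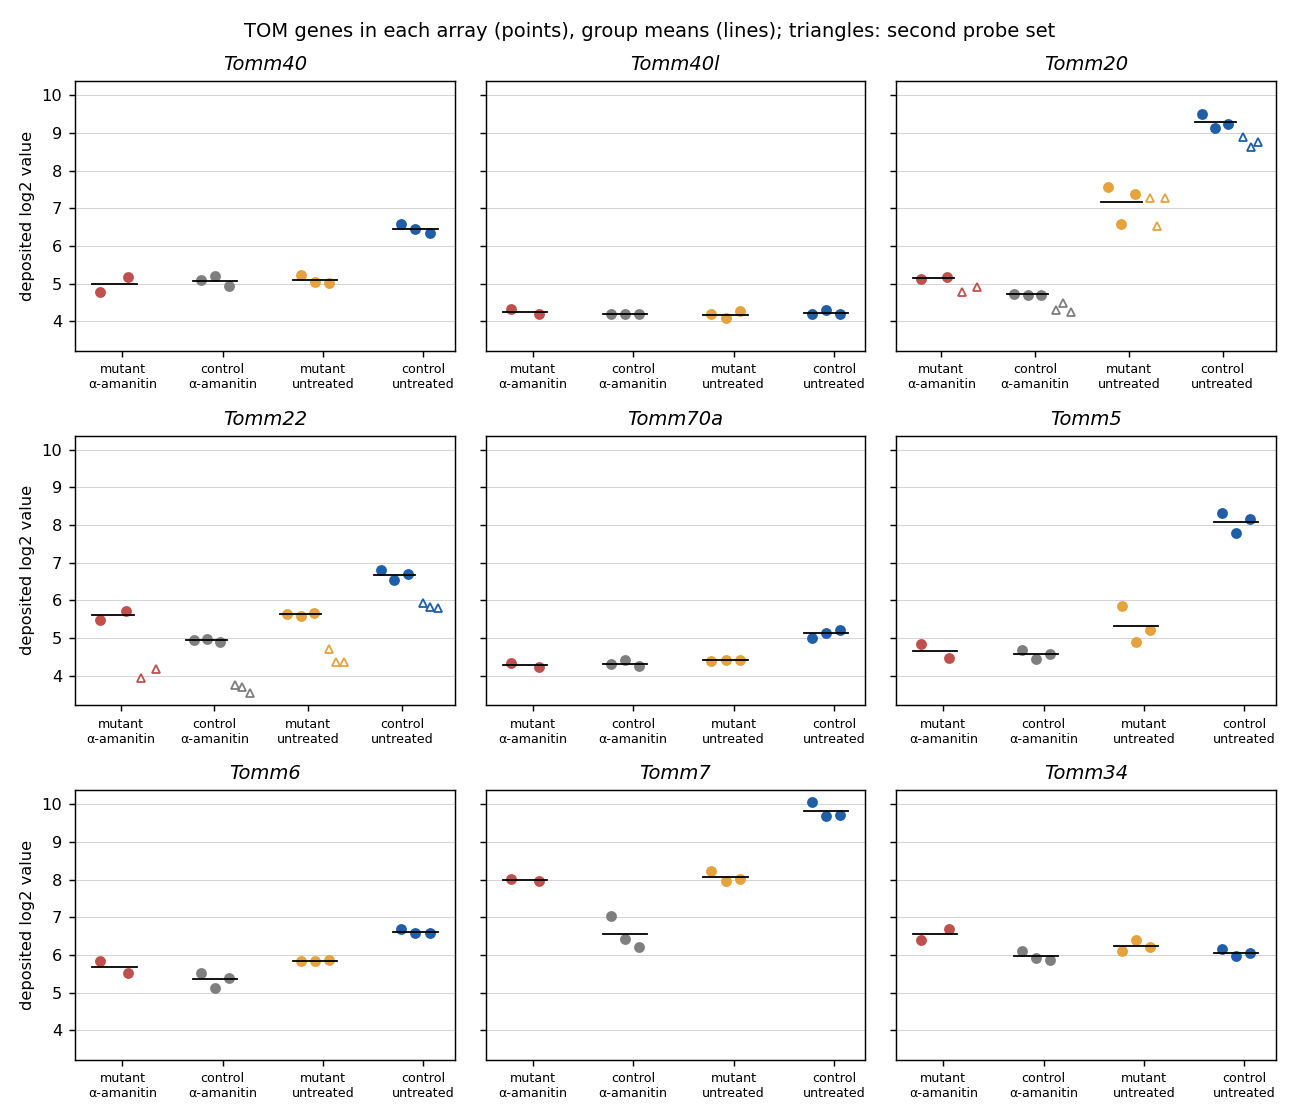
Deposited log2 values (vertical axis) of the 9 TOM genes in each array, by group, with 1 point per array and a line at the group mean. Triangles are the second probe set of Tomm20 and Tomm22. In 7 panels the 3 untreated control points lie above all other points, and in those of Tomm40l and Tomm34 they do not.

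Tomm40 encodes the channel itself. Its log2 values were 4.78 and 5.18 in treated mutant, 5.10, 5.21 and 4.94 in treated control, 5.24, 5.06 and 5.03 in untreated mutant, and 6.59, 6.45 and 6.34 in untreated control arrays. Only the untreated control arrays stood apart, and the other groups overlapped each other. The relative Tomm40l read 4.32 and 4.20 in treated mutant, 4.20, 4.20 and 4.19 in treated control, 4.20, 4.08 and 4.27 in untreated mutant, and 4.20, 4.30 and 4.20 in untreated control arrays. These values lie below the array medians, 5 of the 11 are the same number, and all 4 groups overlap.

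Tomm20, a presequence receptor, read 5.14 and 5.18 in treated mutant, 4.72, 4.71 and 4.71 in treated control, 7.56, 6.57 and 7.39 in untreated mutant, and 9.51, 9.12 and 9.24 in untreated control arrays. No group overlapped another, and untreated mutant replicate 2 was the lowest of its group. The second Tomm20 probe set had the same order, with 4.79 and 4.92, then 4.29, 4.48 and 4.25, then 7.27, 6.54 and 7.27, and last 8.88, 8.63 and 8.76 in these groups. Tomm22, the central receptor that docks the others, read 5.47 and 5.73 in treated mutant, 4.96, 4.97 and 4.90 in treated control, 5.65, 5.58 and 5.67 in untreated mutant, and 6.80, 6.54 and 6.71 in untreated control arrays. Treated and untreated mutant arrays overlapped, and the treated control arrays were the lowest. Its second probe set lay at 3.95 and 4.18 in treated mutant, 3.75, 3.70 and 3.55 in treated control, 4.71, 4.38 and 4.38 in untreated mutant, and 5.94, 5.83 and 5.81 in untreated control arrays. Here the treated mutant arrays lay below the untreated mutant arrays. Of the 20 probe sets with the nearest identifiers, all belonged to chromosome 2 genes for the brighter Tomm20 set and to chromosome 4 genes for the brighter Tomm22 set, while RefSeq places these genes on chromosomes 8 and 15. For the second sets, 13 of 20 lay on chromosome 8 and 20 of 20 on chromosome 15, and for the other 7 members 19 or 20 lay on the gene's own chromosome. Whether the brighter sets read a copy of the gene elsewhere in the genome was not tested, so values of the second sets are given beside theirs. Tomm70a, the receptor for chaperone-bound precursors, read 4.34 and 4.24 in treated mutant, 4.31, 4.41 and 4.26 in treated control, 4.40, 4.43 and 4.43 in untreated mutant, and 5.02, 5.14 and 5.23 in untreated control arrays. Outside untreated control embryos it lay below the array medians.

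Among the small subunits, Tomm5 read 4.84 and 4.47 in treated mutant, 4.69, 4.45 and 4.59 in treated control, 5.85, 4.90 and 5.20 in untreated mutant, and 8.31, 7.80 and 8.17 in untreated control arrays. The untreated mutant arrays lay just above the treated ones and far below every untreated control array. Tomm6 read 5.83 and 5.53 in treated mutant, 5.53, 5.13 and 5.39 in treated control, 5.83, 5.83 and 5.85 in untreated mutant, and 6.68, 6.59 and 6.58 in untreated control arrays. The annotation names this probe set Prickle4, an adjacent gene, but its Entrez identifier and accession are those of Tomm6, and whether it also reads Prickle4 was not tested. Tomm7 read 8.01 and 7.96 in treated mutant, 7.03, 6.43 and 6.21 in treated control, 8.24, 7.95 and 8.01 in untreated mutant, and 10.05, 9.69 and 9.71 in untreated control arrays. The 5 mutant arrays thus spanned 7.95 to 8.24 with or without α-amanitin, between the treated and the untreated control arrays.

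Tomm34 read 6.40 and 6.70 in treated mutant, 6.11, 5.93 and 5.86 in treated control, 6.11, 6.41 and 6.20 in untreated mutant, and 6.16, 5.98 and 6.05 in untreated control arrays. It was the 1 member with clear signal, at 5.86 or more in every array, that did not have its highest values in untreated control embryos.

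The comparison of treated with untreated control embryos asks how RNA levels differ when transcription is blocked after fertilization and maternal Rnf2 is present. Transcripts of the channel, of all 3 receptors and of the small subunits were lower with α-amanitin. Of the 9 members 7 were called lower and none higher, or 6 of the 8 other than Tomm5, whose choice rested on the same untreated control arrays. Among all probe sets 15.9% were called lower and 11.4% higher, and 19.2% of genes were lower by their brightest probe set. Members other than Tomm70a and Tomm40l lay at percentiles 78.6 to 98.2 of mean level over all genes. Shares among genes of like brightness were not computed, here or in the comparisons below. The same 7 had treated arrays wholly below untreated arrays, as had 19.7% of probe sets. The members' median was -1.38, or -1.32 without Tomm5, against 0.04 over all probe sets. Tomm20 fell by 4.57 ± 0.21 (limma's adjusted p = 1.24e-07), a difference that ends close to the array medians and may be larger than measured, and its second probe set fell by 4.42 ± 0.18. Tomm7 fell by 3.26 ± 0.19 (adjusted p = 3.15e-07), or 9.57-fold, and Tomm22 by 1.74 ± 0.09 (adjusted p = 2.16e-07), or 3.34-fold. Tomm40, Tomm6 and Tomm70a moved less, by -1.38 ± 0.12, -1.27 ± 0.11 and -0.80 ± 0.08, each with an adjusted p of 1.78e-05 or lower. Tomm5 differed by -3.52 and its groups did not overlap.

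Tomm34 and Tomm40l were not called in control embryos. Tomm34 differed by -0.10 with an interval of -0.35 to 0.15 (95%), and after quantile normalization this became 0.33 with an adjusted p of 0.0417. Tomm40l differed by -0.04 with an interval of -0.21 to 0.14. The 7 members that fell had treated values of 4.26 to 7.03. Those of Tomm70a, Tomm5 and Tomm20 were close to the array medians, which may limit how far these 3 could fall.

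In mutant embryos the same treatment gave a call for Tomm20 alone, at -2.01 ± 0.24 (limma's adjusted p = 0.00119), a 4.04-fold lower level in treated embryos. Its second probe set gave -2.17 ± 0.20 (adjusted p = 0.000217). Thus 1 of 9 members was called lower and none higher, beside 2.55% of all probe sets called lower, 1.02% called higher and 2.59% of genes lower by their brightest probe set. For 4 members (Tomm20, Tomm70a, Tomm5 and Tomm6) the treated arrays lay wholly below the untreated ones, as for 11.7% of probe sets. The call of Tomm20 was lost when only the mutant arrays were fitted (adjusted p = 0.0776). There was no call for Tomm7 (-0.08, interval -0.54 to 0.38), Tomm22 (-0.03, -0.26 to 0.20), Tomm40 (-0.13, -0.43 to 0.18), Tomm6 (-0.16, -0.44 to 0.12), Tomm70a (-0.13, -0.33 to 0.07) or Tomm34 (0.31, 0.03 to 0.59). The second Tomm22 probe set differed by -0.42 ± 0.12 (adjusted p = 0.103). Tomm5 differed by -0.66, with both treated arrays below the 3 untreated ones. Tomm40l was at 0.08.

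**Figure D2:**
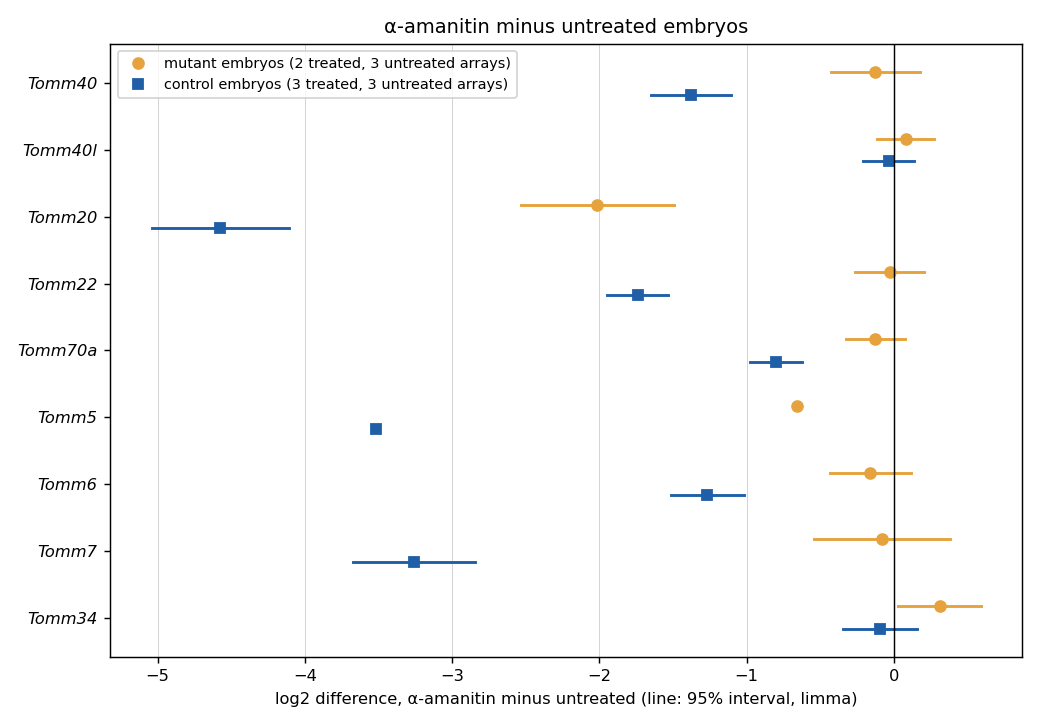
Log2 difference of α-amanitin-treated minus untreated embryos (horizontal axis) for each TOM gene, in mutant embryos (circles) and control embryos (squares), with 95% intervals from limma. No interval is drawn for Tomm5, whose untreated arrays had been used to choose it. The squares of 7 genes lie at -0.80 or lower, and of the circles that of Tomm20, at -2.01, lies furthest left.

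The difference between these 2 treatment effects was tested as an interaction, the mutant difference with α-amanitin less the control one. It was positive and called in 7 of 9 members, or 6 of the 8 other than Tomm5, where 10.9% of all probe sets and 13.5% of genes by their brightest probe set had a positive call and 3.47% of probe sets a negative one. A positive value here means that the treated-minus-untreated difference was less negative in mutant embryos. Untreated mutant arrays of Tomm70a already lay below the array medians, where a further fall may be harder to see. The treated groups of Tomm40, Tomm70a, Tomm20 and Tomm6 were not called different (-0.10, -0.03, 0.44 and 0.33), although those of Tomm20 and Tomm6 did not overlap. The interactions of these genes thus largely restate the untreated genotype difference. Tomm7 had an interaction of 3.18 ± 0.28 (limma's adjusted p = 8.49e-05), Tomm20 of 2.56 ± 0.32 (adjusted p = 0.000358) and Tomm22 of 1.71 ± 0.14 (adjusted p = 6.69e-05). For Tomm40 it was 1.25 ± 0.18, for Tomm6 1.11 ± 0.17 and for Tomm70a 0.67 ± 0.12, with adjusted p of 0.000964, 0.00112 and 0.00325. The call of Tomm6 was lost after quantile normalization (0.67, adjusted p = 0.0674). Tomm34, at 0.41 ± 0.17 (adjusted p = 0.17), and Tomm40l, at 0.11 ± 0.12 (adjusted p = 0.663), were not called. Second probe sets gave 2.25 ± 0.26 for Tomm20 and 1.77 ± 0.17 for Tomm22.

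Most TOM genes, though not Tomm34 or Tomm40l, had lower array values in untreated mutant than in untreated control embryos. This comparison uses the same 3 untreated control arrays as the treatment comparison in control embryos, so the 2 sets of differences are not independent. All 7 genes whose groups did not overlap were lower in the mutant, a pattern held by 19.4% of all probe sets. The same 7 of 9 were called lower and none higher, beside 13.7% of probe sets lower, 6.8% higher and 16.5% of genes lower by their brightest probe set. This is the comparison whose result for Tomm5 prompted the choice, so nothing is read from that count. Tomm5 differed by -2.78 and was 6.85-fold lower. Tomm20 fell by 2.12 ± 0.21 (limma's adjusted p = 4.57e-05), or 4.34-fold, and its second probe set by 1.73 ± 0.18. Tomm7 fell by 1.75 ± 0.19 (adjusted p = 6.88e-05), Tomm40 by 1.35 ± 0.12 (adjusted p = 2.81e-05) and Tomm22 by 1.05 ± 0.09 (adjusted p = 2.62e-05). The second Tomm22 probe set fell by 1.37 ± 0.11.

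Tomm6 fell by 0.78 ± 0.11 (limma's adjusted p = 0.000453), a call lost after quantile normalization (-0.41, adjusted p = 0.0778). Tomm70a fell by 0.71 ± 0.08 (adjusted p = 0.000105), or 1.63-fold. Tomm34 was not called, at 0.18 with an interval of -0.07 to 0.43, but after quantile normalization it was higher in the mutant (0.55, adjusted p = 0.00358). Tomm40l differed by -0.05, with an interval of -0.22 to 0.12. Beside these falls, 6 of the 7 oocyte markers were called higher and 1 lower in untreated mutant embryos. Of the 7 activated 2-cell markers 2 were called higher and 1 lower. Over all probe sets 6.8% were called higher and 13.7% lower. The part of the marker shifts in the result was not tested.

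With α-amanitin the genotypes are compared over RNA that was mostly present before transcription was blocked. No member was called lower in the mutant here. Tomm7 was higher in treated mutant than in treated control embryos by 1.43 ± 0.21 (limma's adjusted p = 0.00195), or 2.69-fold. Tomm22 was higher by 0.66 ± 0.10 (adjusted p = 0.00297), or 1.58-fold, and Tomm34 by 0.58 ± 0.13 (adjusted p = 0.0161). These 3 of 9 called higher stand beside 5.52% of all probe sets higher, 3.52% lower and 6.95% of genes higher by their brightest probe set. The groups did not overlap for these 3 genes nor for Tomm20 and Tomm6, where 16.8% of probe sets had treated mutant arrays wholly above treated control arrays. Tomm20 was at 0.44 ± 0.24 (adjusted p = 0.365), which passed without untreated mutant replicate 2 (adjusted p = 0.0472), and its second probe set was at 0.52 ± 0.20 (adjusted p = 0.16). Tomm6 was at 0.33 ± 0.12 (adjusted p = 0.154).

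The rise of Tomm22 was not called in its second probe set (0.40 ± 0.12, adjusted p = 0.0779), with which 2 of 9 members were called higher. That of Tomm34 was lost without treated control replicate 3 (adjusted p = 0.0552), without treated mutant replicate 2 (adjusted p = 0.126) or with only the treated arrays fitted (adjusted p = 0.0866). Over the alternatives, adjusted p for Tomm7 ran from 0.00014 to 0.0405. Tomm40, at -0.10 with an interval of -0.40 to 0.20, Tomm70a, at -0.03 with -0.23 to 0.17, and Tomm5, at 0.08 with -0.47 to 0.63, gave no call in either direction, and Tomm40l was at 0.06. Tomm5, tested here on arrays that had no part in its choice, had an adjusted p of 0.936. Its treated arrays read 4.45 to 4.84, close to the array medians, where a fall may be harder to see.

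**Figure D3:**
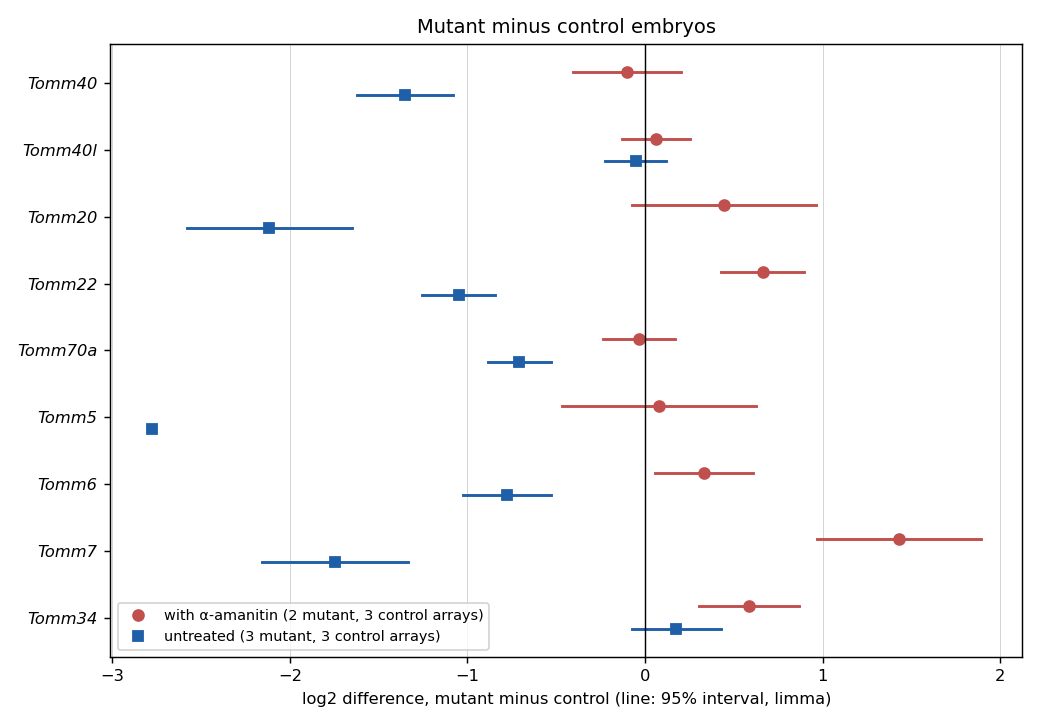
Log2 difference of mutant minus control embryos (horizontal axis) for each TOM gene, with α-amanitin (circles) and untreated (squares), with 95% intervals from limma. Untreated Tomm5, at -2.78, has no interval because it was chosen on that value. The squares of 7 genes lie at -0.71 or lower, and the circles lie between -0.10 (Tomm40) and 1.43 (Tomm7).

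Genes whose 4 group means followed a member most closely were ranked by the mean absolute difference of the centred means over 4 groups, among 21185 other genes. This measure describes likeness only, and the 4 points share their arrays. For Tomm20 and Tomm22 it used the brighter probe sets, and the second sets were not ranked. Nearest to Tomm5 was Cox17, a copper chaperone of the intermembrane space, at 0.03 log2 units, followed by Riox1 at 0.05. Nearest to Tomm20 were Znhit3, Rpl36al and Kdm5b, at 0.13 to 0.15. Nearest to Tomm7 were Rpl39l at 0.06, Rps14, of the small ribosomal subunit, at 0.08, and Nifk at 0.09. Tomm22 was followed by Yipf1, Iws1 and Dgat2, all at 0.03, Tomm40 most closely by Rrn3 (0.01), and Tomm6 by Ercc3 (0.01).

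The rest of the import machinery was counted over 11 lists and Tomm20l, 78 genes of which 73 had a probe set. In treated against untreated control embryos 37 of the 73 were called lower, where 19.2% of all genes were, with a median of -0.43. Another 10 were called higher, where 11.4% of all probe sets were. In untreated mutant against control embryos 33 were lower, where 16.5% of all genes were, with a median of -0.23. Higher calls numbered 5, a share near the 6.8% of all probe sets that were higher. The 5 higher ones were Agk, Dnajc11 and Fkbp8, and Hspe1 and Mtch1, which were chosen after their values were seen. With α-amanitin 7 of 73 were higher in the mutant, a share near the 6.95% of all genes that were higher. There 4 were lower, where 3.52% of all probe sets were. In mutant embryos treatment gave 2 lower calls, Pmpca (-0.70 ± 0.12) and Yme1l1 (-0.65 ± 0.13), a share near the 2.59% of all genes. The interaction was positive in 31 and negative in 3. Among all genes 13.5% had a positive call, and among all probe sets 3.47% had a negative one.

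Partners that take over from the TOM channel moved unevenly. In untreated mutant against control embryos, Timm17a, of the TIM23 channel of the inner membrane, fell by 2.1 ± 0.29 (limma's adjusted p = 0.000393), and Timm13 and Timm8a1, chaperones of the intermembrane space, by 1.94 ± 0.12 and 1.87 ± 0.16. In the same comparison Pmpca, a subunit of the presequence peptidase, fell by 1.52 ± 0.10, and 6 of 7 cytosolic chaperones that deliver precursors fell, among them Hsp90ab1 by 1.03 ± 0.13. The 16 other outer membrane proteins had 4 falls and 2 rises with a median of 0.04. The 7 measured MICOS genes had 1 fall and 1 rise. Falls in this comparison were called in 16.5% of all genes, and rises in 6.8% of all probe sets. The TOM median in this comparison was -1.05 with Tomm5 and -0.913 without it. Medians were -1.03 for the small TIM chaperones and -0.965 for the TIM22 carrier translocase, each over few genes. Of 4 measured small TIM chaperones 2 were called lower. Of 3 measured TIM22 genes 2 were called lower and 1, Agk, higher. In treated against untreated control embryos the cytosolic chaperones had the lower median, -1.46, against -1.38 for TOM with Tomm5 and -1.32 without it. Whether the TOM median differs from those of the lists was not tested. Hsp90ab1, which hands precursors to Tom70, was 1.52 ± 0.15 higher in treated mutant than in treated control embryos (adjusted p = 0.000197). Pam16, of the import motor, was 1.21 ± 0.18 higher there. Nearest identifiers were examined for the 9 members only, so whether sets of other import genes read copies elsewhere was not tested. Tomm20l, a relative of Tomm20, was not called in any of the 5 comparisons.

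**Figure D4:**
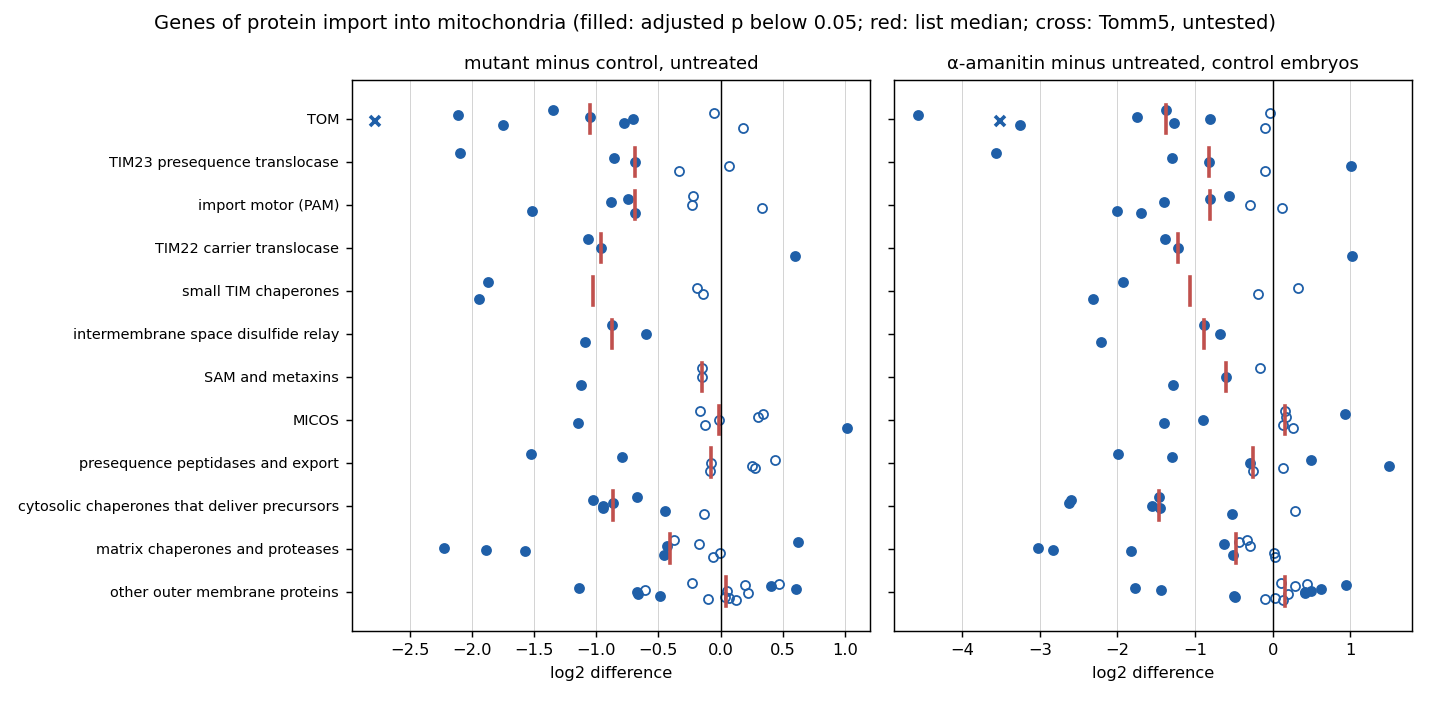
Log2 differences (horizontal axes) of the TOM genes and of 11 lists of other import genes, for untreated mutant minus control embryos (left) and for α-amanitin minus untreated control embryos (right), with 1 point per gene. Filled points were called by limma, open points were not, the cross is Tomm5, and red bars are medians, which for TOM are -1.05 and -1.38.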

How the data were processed

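RNA of 11 embryo pools was amplified and read on Affymetrix arrays, per the labels' protocols. The authors deposited 1 log2 value per probe set and array. The submitters' processing notes name R 2.10.0 and affy, and the sources used here do not state how background was corrected or arrays were normalized. The log2 scale was read from the deposited values, which run from 1.11 to 12.8. No detection calls were used, and precision is limited by the number of arrays.

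Of 34760 probe sets, the deposited annotation gave 1 symbol to 22812, several to 1800 and none to 10117, and it did not list 31. Symbols were updated through Entrez identifiers in the RefSeq gene table (GRCm38.p6), which changed 3479. The brightest probe set stood for a gene, and, as an alternative chosen after seeing the data, the second probe sets of Tomm20 and Tomm22 took its place. The fits used limma 3.58.1 under R 4.3.3 (1 mean per group over all 11 arrays, eBayes, 7 residual and 3.59 prior degrees of freedom), which was tested on simulated data. Adjusted p-values are 2-sided and cover all probe sets. An exact 2-sided permutation test of 3 against 3 arrays cannot go below 0.1, nor one of 3 against 2 below 0.2, and neither was used. The labels call the replicates biological, and nothing in them says that equal replicate numbers share a day or litter. For that reason the main fit used no block, and a replicate block was fitted as an alternative. Deviations of same-numbered arrays correlated at -0.223 to 0.154. The negative values all involve the treated mutant group, whose 2 centred arrays mirror each other. Among the other groups same-numbered arrays correlated at 0.029 to 0.154, so a weak shared deviation is not excluded. The members, the gene lists, the tests and the alternatives were chosen with earlier results of these data known. Genes named were all members, up to 3 called genes per list and comparison without overlap between groups, and the 3 genes nearest to each member whose group means spanned at least 1. Alternatives were other normalizations, a filter on dim probe sets, an intensity trend, array weights, fewer groups, a replicate block, means over probe sets of a gene, and leaving out each array. Promoter motifs were counted on both strands.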

Additional observations from a re-analysis of the deposited data

Results flagged for a closer look

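For 6 TOM genes the effect of α-amanitin differed between mutant and control embryos by a test of the difference itself, limma's interaction. The interaction (the treated-minus-untreated difference of mutant embryos, less that of control embryos) was 3.18 for Tomm7, 2.56 for Tomm20, 1.71 for Tomm22, 1.25 for Tomm40, 1.11 for Tomm6 and 0.67 for Tomm70a. In Tomm7 the treatment difference was -0.08 in mutant and -3.26 in control embryos, and in Tomm20 it was -2.01 in mutant and -4.57 in control embryos. Tomm70a lay below the array medians in untreated mutant embryos, so a further fall may be harder to see there. The treated groups differed by -0.10 in Tomm40, -0.03 in Tomm70a, 0.44 in Tomm20 and 0.33 in Tomm6, none of them called. The interactions of these genes thus largely restate the untreated genotype difference. Tomm5 had been chosen on a value that enters its interaction, so it is not listed.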

How the results depend on the processing

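Of 896 differences of single members recomputed under the alternatives, 878 kept their direction and their side of the threshold, 7 lost a call, 3 gained one and 9 changed sign, 1 of them (Tomm34) with a gained call. All changes of sign were in values not called in the main analysis, and the causes of changes were not tested except where a setting itself uses fewer arrays. Quantile normalization turned Tomm34 to 0.33 for treatment in control embryos and to -0.062 for the interaction. Leaving out 1 array turned some values near 0. For genotype with α-amanitin the ranges were -0.086 to 0.017 for Tomm70a (0.0068 without treated control replicate 2), -0.30 to 0.099 for Tomm40 and -0.105 to 0.265 for Tomm5. For treatment in mutant embryos they were -0.1405 to 0.0035 for Tomm7, -0.33 to 0.072 for Tomm40 and -0.16 to 0.10 for Tomm22. The upper end of Tomm70a came without treated mutant replicate 2 and that of Tomm7 without untreated mutant replicate 1. For Tomm40, Tomm22 and Tomm5 the sign turned without treated mutant replicate 1.

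For the members, quantile normalization gave 1 called higher (Tomm34) for genotype untreated and for treatment in control embryos, and medians of -0.71 and -0.95, and an interaction median of 0.82. With cyclic loess the interaction median was 1.10. Over the brighter 50% of probe sets, in which only 8 members remained, medians were -1.20, -1.56 and 1.48. With means over all probe sets of a gene the untreated genotype median was -1.21, and with the second probe sets of Tomm20 and Tomm22, a choice made after seeing the data, it was -1.35. With only the groups compared, 0 members were called lower for treatment in mutant embryos by limma. Without 1 array each, members called higher for genotype with α-amanitin numbered 2 to 4, and the median ran from 0.19 to 0.42; medians ran from -1.12 to -0.99 (genotype, untreated), -0.14 to -0.06 (treatment, mutant), -1.44 to -1.31 (treatment, control) and 1.18 to 1.45 (interaction).

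For all probe sets, quantile normalization gave 3993 higher and 3629 lower for genotype untreated, 2322 lower for genotype with α-amanitin, 887 higher for treatment in mutant, 6194 higher for treatment in control embryos and 3323 lower for the interaction, where cyclic loess gave 2191. For genotype with α-amanitin, array weights gave 704 lower and only the groups compared 836 higher and 395 lower. For treatment in mutant embryos, higher and lower calls were 83 and 475 with array weights and 5 and 137 with only the groups compared, higher calls were 634 over the brighter 50%, and lower calls 1380 with cyclic loess. The replicate block gave 152 higher there and changed no call of a member. Leaving out 1 array gave 1660 to 2648 higher and 3929 to 5001 lower (genotype, untreated), 1021 to 2437 and 596 to 1388 (genotype, α-amanitin), 72 (without treated mutant replicate 2) to 1277 (without treated mutant replicate 1) and 531 to 885 (treatment, mutant), 3181 to 4244 and 4983 to 5684 (treatment, control), and 2961 to 4126 and 814 to 1590 (interaction).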
